A study of Mus musculus with 4 samples.

Results

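Iron uptake and storage genes were examined in 4 cultures of immortalized mouse embryonic fibroblasts, connective tissue cells from mouse embryos that had been made able to divide indefinitely. The 9 genes, of 23366 in the deposited table, were chosen by symbol. They are Tfrc, Steap3, Slc11a2 and Slc39a14 for uptake, Fth1 and Ftl1 for storage, Slc40a1 for export, and Ireb2 and Aco1 for control. The cultures carried Myc, MycN, a protein the labels call Minimal Myc, or an empty vector. All 4 received an adenovirus that delivers Cre recombinase, an enzyme that removes DNA between its recognition sites, and were harvested after a recovery period. By the series design, the Myc gene was deleted in the vector cells, and the question was how overall expression differs between these and cells with a Myc protein. There was 1 RNA-seq library per culture, so no difference has a replicate check, no test was run and no p-value is given. The labels do not say whether a culture is 1 clone, what drives each added protein, or from which gene Minimal Myc was made.

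Cells take up most iron bound to transferrin through the transferrin receptor, which is internalised into endosomes, where the iron is reduced and carried into the cytosol. Iron that is not used is kept inside ferritin, a hollow shell of heavy and light chains, or leaves the cell through ferroportin. A pair of iron regulatory proteins, encoded by Aco1 and Ireb2, bind a hairpin in messenger RNAs called the iron-responsive element when iron is scarce. Binding near the start of a message blocks its translation, as in ferritin, and binding in the tail of the transferrin receptor message slows its decay. Myc proteins are transcription factors that drive growth genes, and growing cells need iron for respiration and DNA synthesis.

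The iron-responsive element divides the 9 genes by how their messages are known to be controlled, so the matching stretches are shown before the levels. Each was found in the GENCODE M21 transcript matched to a RefSeq identifier, on the sense strand, as a C, 5 bases, a loop of CAGTG and any base, and 5 more bases, of which at least 4 pair with the 5 before the loop. Each line gives 29 bases of the transcript, read 5′ to 3′ with T for U, and the capitals mark the loop of 6 bases. Positions are of the mouse build GRCm38, which is not the build named for the deposited values.
Fth1, 5′ UTR, chr19:9982732-9982760, plus strand: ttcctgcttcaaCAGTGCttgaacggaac
Ftl1, 5′ UTR, chr7:45459779-45459807, minus strand: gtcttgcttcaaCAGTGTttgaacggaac
Slc40a1, 5′ UTR, chr1:45925465-45925493, minus strand: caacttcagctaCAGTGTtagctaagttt
Tfrc, 3′ UTR, site 1 of 4, chr16:32631219-32631247, plus strand: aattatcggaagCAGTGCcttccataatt
Tfrc, 3′ UTR, site 2 of 4, chr16:32631598-32631626, plus strand: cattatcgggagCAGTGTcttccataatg
Tfrc, 3′ UTR, site 3 of 4, chr16:32631663-32631691, plus strand: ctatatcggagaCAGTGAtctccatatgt
Tfrc, 3′ UTR, site 4 of 4, chr16:32631710-32631738, plus strand: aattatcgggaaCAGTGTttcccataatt
Slc11a2, 3′ UTR, chr15:100395153-100395181, minus strand: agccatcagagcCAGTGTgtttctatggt

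The Fth1 and Ftl1 stretches share 26 of 29 bases. In Tfrc, Fth1, Ftl1 and Slc40a1 all 5 stem positions can pair, and in Slc11a2 4 of 5 can. The Slc11a2 match lies in the transcript NM_001146161, whereas the deposited row carries NM_008732, a transcript with 0 matches. The Slc11a2 levels given here therefore cannot be assigned to the form with the element. The listed transcripts of Steap3, Slc39a14, Ireb2 and Aco1 held 0 matches. The pattern is not rare by itself. It occurs in 2970 of 33363 RefSeq-matched transcripts (8.9%), of unequal length, and with all 5 positions paired in 356 (1.07%). Transcripts with 4 or more matches, as in Tfrc, numbered 5, from 4 genes. A match describes the letters only and was not tested as a binding site. An element with another loop would be missed, so the matches in a transcript are not a count of all its elements.

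**Figure D1:**
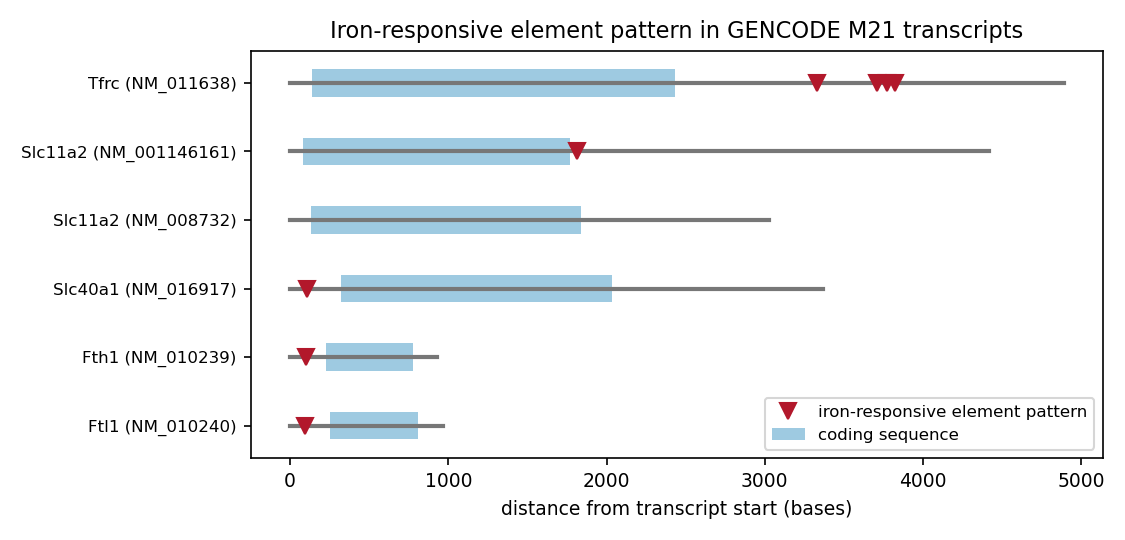
Position of the iron-responsive element pattern (triangles) in 6 transcripts, in bases from the transcript start, with the coding sequence as a box. The pattern lies before the coding sequence in Fth1, Ftl1 and Slc40a1, after it in Tfrc (4 matches) and in one Slc11a2 transcript, and the other Slc11a2 transcript has 0.

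The labels were first checked on the targeted genes. Myc stood at 141 FPKM (fragments per length of transcript, relative to the library's total) in Myc, 4.36 in MycN, 32.6 in Minimal Myc and 22.2 in vector. Mycn stood at 0.275, 178, 95.9 and 0.390 FPKM in the same order. Vector is thus not shown to lack Myc RNA. The low FPKM values step in whole fragments, which gives the depth of each library over that of vector, at 1.01 for Myc, 1.39 for MycN, 1.32 for Minimal Myc. With transcript lengths these depths correspond to an estimated 68300000, 93500000 and 88800000 fragments, against 67400000 in vector. Fibroblast markers summed to 3380, 2348, 3181 and 2473 FPKM in Myc, MycN, Minimal Myc and vector, with Col1a1, a collagen of fibroblasts, at 243, 240, 190 and 147 FPKM. Of the 10, Fap alone stayed below 1 FPKM in every library. All 7 erythroid markers together reached 1.91 FPKM at most, and all 6 hepatocyte markers 1.03.

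A gene entered the counts when it averaged at least 1 FPKM over the 4 libraries, which 8 of the 9 iron genes did. Slc40a1 did not and is described on its own. Differences are in log2(FPKM + 1), a scale on which low genes appear to differ less than they do, and were called at 2-fold or more. Most genes were higher than in vector: over 11640 genes the median difference was 0.47 with Myc, 0.42 with MycN and 0.47 with Minimal Myc (log2). For the 8 genes past the filter, each difference from vector is therefore also given relative to this median. In the authors' scaled table the same medians were 1.42, 0.76 and 0.80. The comparisons with vector share that 1 library, so its chance values enter all of them. In bulk RNA, fewer cells of a kind and less RNA per cell cannot be told apart.

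Uptake genes stood higher in every Myc culture than in vector, and Tfrc stood highest among them. Tfrc, the transferrin receptor, was at 68.3 FPKM with Myc, 56.2 with MycN and 57.0 with Minimal Myc, against 21.7 in vector. In these unscaled values all 3 Myc cultures lay above vector. The log2 difference from vector was 1.61 with Myc, 1.33 with MycN and 1.36 with Minimal Myc, and 1.14, 0.92 and 0.88 relative to the median gene. In Myc the Tfrc difference exceeded that of 98.8% of all genes, in MycN that of 97.5% and in Minimal Myc that of 95%. Between Myc proteins Tfrc differed by -0.28 for MycN minus Myc, -0.26 for Minimal Myc minus Myc and 0.02 for Minimal Myc minus MycN. In the scaled table the MycN and Minimal Myc differences from Myc were larger, at -0.92 each.

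Slc39a14, a carrier for iron not bound to transferrin that also moves zinc and manganese, had the second largest difference of the 8 in each comparison with vector. It was at 16.3 FPKM with Myc, 14.0 with MycN and 14.6 with Minimal Myc, against 6.52 in vector. All 3 Myc cultures again lay above vector. For MycN minus Myc the log2 difference was -0.21, or -0.84 in the scaled table, and for Minimal Myc minus Myc -0.15, or -0.80. The log2 differences from vector were 1.20, 0.99 and 1.05, so MycN fell just short of 2-fold on this scale although the plain FPKM ratio was 2.14. Relative to the median gene they were 0.73, 0.57 and 0.58.

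Steap3, the reductase that converts endosomal iron to its ferrous form, was at 27.9 FPKM with Myc, 26.0 with MycN and 22.8 with Minimal Myc, against 15.4 in vector. Its log2 differences of 0.82, 0.72 and 0.54 stayed below 2-fold, and relative to the median gene they were 0.34, 0.30 and 0.07. Slc11a2, the transporter that moves ferrous iron out of the endosome, had another order. It was highest in Minimal Myc at 28.3 FPKM, with 21.5 in Myc, 23 in MycN and 14.4 in vector. Its log2 differences from vector were 0.55 with Myc, 0.64 with MycN and 0.93 with Minimal Myc, or 0.07, 0.22 and 0.46 relative to the median gene. Of the 4 uptake genes Slc11a2 alone was higher in Minimal Myc than in Myc, by 0.39 (log2) in FPKM. In the scaled table that sign turned, to -0.26.

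**Figure D2:**
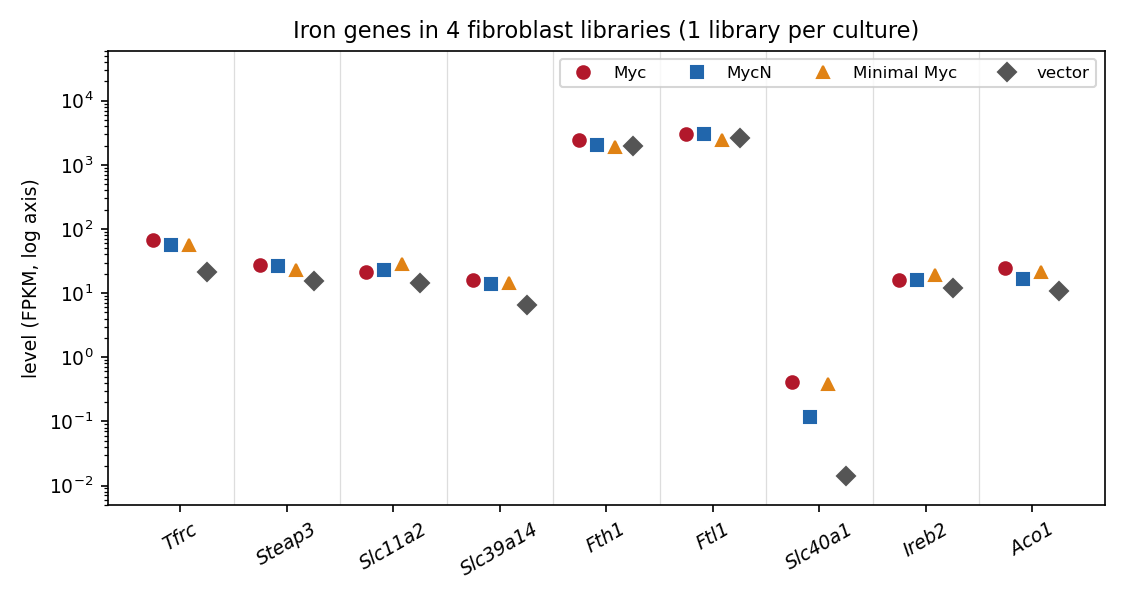
Level of each iron gene in FPKM (log axis) in the Myc, MycN, Minimal Myc and vector libraries, 1 point per library. Vector is lowest for every gene except Fth1 and Ftl1, where Minimal Myc is lowest (1869 and 2405 FPKM), and Slc40a1 lies far below the rest.

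Ferritin genes were among the most abundant of all and, in plain FPKM, differed least between cultures among the 9 genes. Their highest level was 1.32 times the lowest for Fth1 and 1.25 times for Ftl1. Fth1, the heavy chain that oxidises iron as it enters the shell, was at 2476 FPKM with Myc, 2038 with MycN and 1869 with Minimal Myc, against 1975 in vector. Ftl1, the light chain that helps form the iron core, was at 3008, 2983 and 2405 FPKM, against 2626 in vector. For both genes vector lay inside the range of the Myc cultures. By level, Ftl1 ranked 8 in Myc, 6 in MycN, 10 in Minimal Myc and 3 in vector among 11640 genes, and Fth1 ranked 15, 13, 21 and 6. Both genes have near-identical processed copies in the mouse genome, and no source used here says how shared fragments were divided, so their levels are uncertain.

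The sign of the ferritin differences depended on the scale. In plain FPKM the log2 difference of Fth1 from vector was 0.33 with Myc, 0.05 with MycN and -0.08 with Minimal Myc, and that of Ftl1 was 0.20, 0.18 and -0.13. Relative to the median gene all 6 values were below 0, at -0.15, -0.37 and -0.55 for Fth1 and -0.28, -0.23 and -0.60 for Ftl1. On that scale Ireb2 differed less from vector than either ferritin gene, at -0.09, -0.05 and 0.14. In the scaled table all 6 were above 0, at 1.35, 0.42 and 0.28 for Fth1 and 1.22, 0.56 and 0.23 for Ftl1. Between 12.1% and 36.9% of all genes had a lower difference than a ferritin gene in the same comparison with vector. Neither ferritin gene reached 2-fold in plain FPKM in any of the 6 comparisons.

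A ratio of 2 genes within a library does not move with the scaling of that library. Tfrc over Fth1 was 0.0276 with Myc, 0.0276 with MycN and 0.0305 with Minimal Myc, against 0.0110 in vector. Relative to vector the ratio was thus 2.51, 2.51 and 2.78 times as high, whichever deposited table is used. Fth1 over Ftl1 was 0.823 with Myc, 0.683 with MycN and 0.777 with Minimal Myc, against 0.752 in vector, with vector inside the range of the others. Ireb2 over Aco1 was 0.656 with Myc, 0.963 with MycN and 0.893 with Minimal Myc, against 1.13 in vector, and was lowest in Myc.

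**Figure D3:**
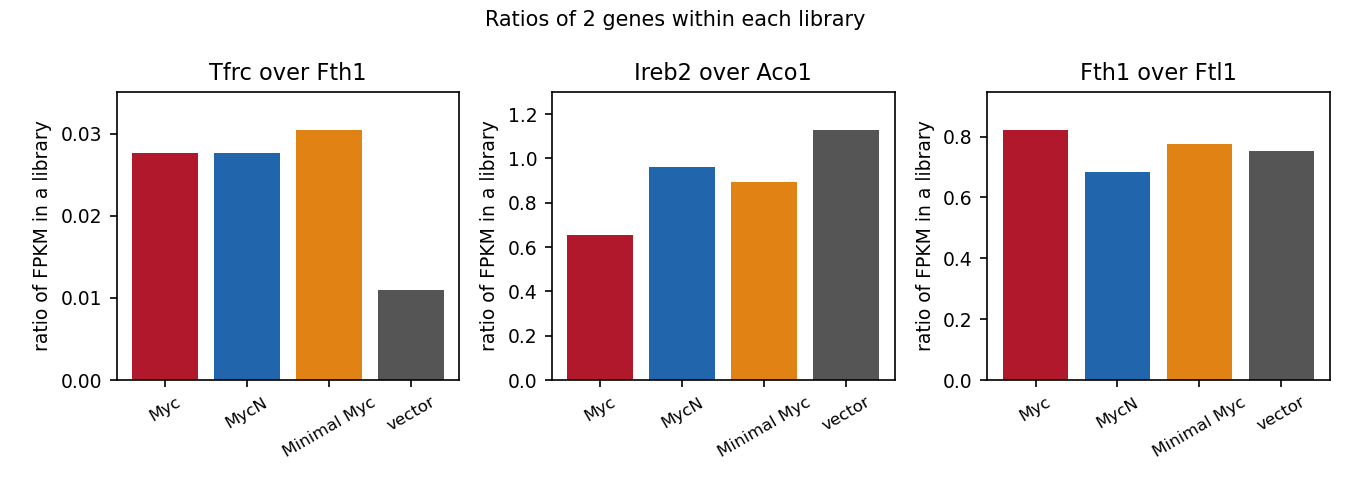
Ratio of the FPKM of 2 genes within each library, for Tfrc over Fth1, Ireb2 over Aco1 and Fth1 over Ftl1, bars from 0, 1 library per bar. Tfrc over Fth1 is 0.0276 to 0.0305 in the Myc cultures and 0.0110 in vector, while Fth1 over Ftl1 in vector (0.752) lies within the range of the others.

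The genes of the iron regulatory proteins differed from each other. Aco1 encodes a protein that is an aconitase when it holds an iron-sulfur cluster and binds RNA when it does not. It was at 24.8 FPKM with Myc, 16.7 with MycN and 21.6 with Minimal Myc, against 10.8 in vector. Vector was lowest and MycN lay nearest to it. The log2 differences were 1.12, 0.58 and 0.93, or 0.65, 0.16 and 0.46 relative to the median gene. For MycN minus Myc, Aco1 differed by -0.54, and 11.2% of all genes had a lower difference. In the scaled table it differed by -1.18.

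Ireb2, whose protein is removed when iron is plentiful, was at 16.3 FPKM with Myc, 16.1 with MycN and 19.3 with Minimal Myc, against 12.2 in vector. Its log2 differences of 0.38, 0.37 and 0.61 lay around the median gene, at -0.09, -0.05 and 0.14 relative to it. Among the 8 genes past the filter, the estimated number of fragments was lowest for Slc39a14 in vector, at 823. That number gives a 95% Poisson interval of -6.72% to 7.07% around the level. This interval covers counting error only, and the spread between cultures is not known.

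Slc40a1 encodes ferroportin, the exporter of iron from cells. It was below 1 FPKM in every library and near the limit of detection in vector. It was at 0.405 FPKM with Myc, 0.118 with MycN and 0.389 with Minimal Myc, against 0.0140 in vector. These values correspond to 88, 35 and 110 fragments, against 3 in vector, the smallest whole numbers that match all 4 values within 0.02. The exact 95% Poisson intervals were 70.6 to 108, 24.4 to 48.7 and 90.4 to 133 fragments, against 0.619 to 8.77 in vector. The ratio to vector per unit of depth was 28.9 in Myc (95% interval 9.59 to 143), 8.41 in MycN (2.65 to 42.7) and 27.8 in Minimal Myc (9.27 to 137), with counting error alone in the exact binomial intervals. On the log2(FPKM + 1) scale the same differences were only 0.47, 0.14 and 0.45. Macrophages carry much ferroportin, and 8 macrophage markers summed to 6.91 FPKM with Myc, 8.93 with MycN and 3.25 with Minimal Myc, against 5.73 in vector. Most of that sum came from Cd68, at 3.67, 5.23, 1.87 and 2.21 FPKM in the same order, and Csf1r, at 1.86, 2.81, 1.05 and 2.42. The defining markers Ptprc, the pan-leukocyte gene, and Emr1, the F4/80 antigen, were at 0.0215 FPKM or less and 0.00487 or less in each library. The part of such cells in the Slc40a1 level was not tested.

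In the Myc comparison, 3 of the 8 genes past the filter (Tfrc, Slc39a14 and Aco1) were at least 2-fold higher than vector, where 11.2% of all genes were. In MycN it was 1 of 8 (Tfrc), where 7.65% of all genes were, and in Minimal Myc 2 of 8 (Tfrc and Slc39a14), where 13.6% were. No member was 2-fold lower, against 1.56%, 1.86% and 1.68% of all genes. The median difference of the 8 was 0.68, 0.61 and 0.77, beside 0.47, 0.42 and 0.47 for all genes. Relative to the median gene, 1 of 8 (Tfrc) stayed at least 2-fold higher in Myc, where 1.87% of all genes did. In MycN and Minimal Myc 0 of 8 did, where 1.86% and 3.71% did. With the authors' scaled FPKM, 8 of 8 were that much higher in Myc, where 78.5% of all genes were, 4 of 8 in MycN, where 27.4% were, and 4 of 8 in Minimal Myc, where 33.7% were.

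Between Myc proteins 0 of the 8 genes differed by 2-fold in FPKM. With scaled FPKM, 1 (Aco1) was 2-fold lower in MycN than in Myc, where 20.2% of all genes were, and 1 (Fth1) in Minimal Myc than in Myc, where 17.7% were. All genes higher by that much were 1.95% for MycN against Myc, 4.48% for Minimal Myc against Myc and 6.94% for Minimal Myc against MycN, and all genes lower were 2.74%, 2.16% and 3.69%. The member medians were -0.15, -0.22 and 0.04, beside -0.06, -0.03 and 0.05 for all genes. Vector also held more of some RNAs that are not messages: Malat1, a nuclear non-coding RNA, was at 124 FPKM with Myc, 192 with MycN and 64.0 with Minimal Myc, against 381 in vector, and its part in the differences was not tested.

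**Figure D4:**
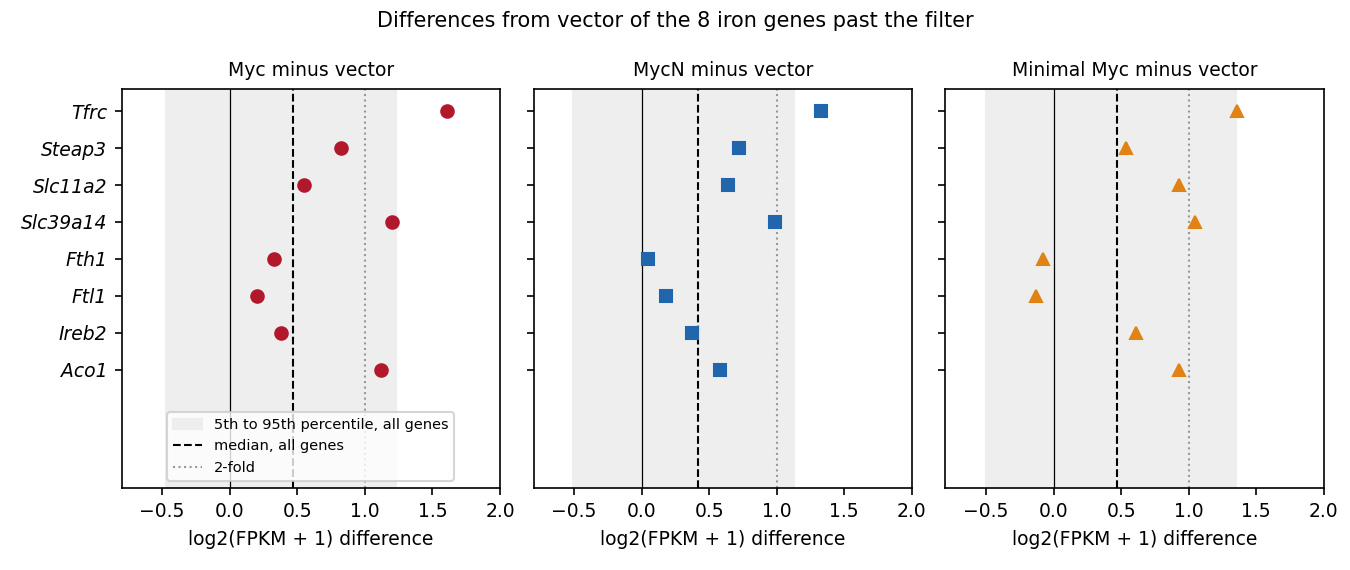
Log2(FPKM + 1) differences from vector of the 8 iron genes past the filter, for Myc, MycN and Minimal Myc, with the median (dashed) and the 5th to 95th percentile (grey) of 11640 genes. Tfrc lies at or past the upper edge of the grey band in all 3 panels (1.61, 1.33 and 1.36), and Fth1 and Ftl1 lie left of the dashed line in each.

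The genes whose pattern over the 4 libraries lay nearest to that of Tfrc were Ppan, Mki67ip and Mccc2, at Euclidean distances of 0.033, 0.033 and 0.088 between centred log2(FPKM + 1) values. Ppan was at 61.1 FPKM with Myc, 49.2 with MycN and 50.5 with Minimal Myc, against 19.5 in vector. Among the iron genes Slc39a14 lay nearest, at 0.314, and Ftl1 farthest, at 1.195. With 4 libraries such a distance is a description only.

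Promoters were available for Tfrc, Steap3, Fth1, Ftl1, Ireb2 and Aco1, as 11 windows from 250 bases before to 50 after a start site (RefSeq, GRCm38.p6). Slc11a2, Slc39a14 and Slc40a1 had no entry. CACGTG, the E-box that Myc binds with Max, was in 0 of the 11 windows and in 7.15% of all 32851. TGACNNNGC, the core of the antioxidant response element, was also in 0 of 11, and in 12.4% of all windows on either strand. These letters are only absent from these windows, and with 11 windows a count of 0 cannot be told from those shares. Sequence outside the windows and the letters CACGCG were not searched.

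Other genes that carry, reduce or handle iron had medians near that of all genes. Of 26, 14 passed the filter. In Myc, 2 exceeded vector by 2-fold or more and 0 lay as far below, in MycN 2 and 0, and in Minimal Myc 4 and 0, with median differences of 0.51, 0.40 and 0.50. Of all genes, 11.2%, 7.65% and 13.6% were as far above vector, and 1.56%, 1.86% and 1.68% as far below. Lcn2, a secreted protein that binds iron-loaded siderophores, was at 8.73 FPKM with Myc, 55.2 with MycN and 31.0 with Minimal Myc, against 4.04 in vector. Slc22a17, reported as its receptor, was at 3.16, 5.06 and 0.947 FPKM, against 0.390 in vector. The highest levels of both were in MycN.

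Among the 4 genes of the Steap family, Steap1, Steap2 and Steap4 shared 1 order of levels, and Steap3 had another. Steap1 was at 54.5 FPKM with Myc, 20.0 with MycN and 79.6 with Minimal Myc, against 18.9 in vector. Steap4 was at 7.67 FPKM in Minimal Myc, with 0.648 in Myc, 0.346 in MycN and 0.0252 in vector. Steap2 was at 15.9 FPKM with Myc, 13 with MycN and 19.5 with Minimal Myc, against 9.71 in vector. These 3 genes were highest in Minimal Myc, and Steap3 was lower there than in Myc and MycN. Ncoa4, the receptor that takes ferritin to the lysosome, was at 18.2, 17 and 18.9 FPKM, against 15.7 in vector, and Fbxl5, which marks the Ireb2 protein for removal, at 19.1, 24.7 and 21.5, against 15.7.

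Of 19 genes fixed for haem synthesis, transport and breakdown, 17 had values used here and 16 passed the filter. In Minimal Myc 4 of the 16 were 2-fold or more above vector, where 13.6% of all genes were, and 1 below, where 1.68% were. In Myc and in MycN 0 were above, where 11.2% and 7.65% of all genes were, and 0 below, where 1.56% and 1.86% were. Their median differences were 0.50, 0.28 and 0.74 in Myc, MycN and Minimal Myc. Alad, the second enzyme of haem synthesis, was at 13.3, 9.42 and 17.8 FPKM, against 7.10 in vector. Pgrmc1, a haem-binding membrane protein, was at 64.2, 52.4 and 140 FPKM, against 51.2. The 1 lower gene was Hmox1, the enzyme that breaks haem down and frees its iron, at 153, 131 and 64.8 FPKM, against 147 in vector. Alas1, the first enzyme of haem synthesis, was also read by NanoString, a direct count of RNA molecules whose normalization is not stated, and by which 0 of the 9 iron genes were read. Its NanoString ratio to vector was 1.96 with Myc, 0.954 with MycN and 1.38 with Minimal Myc, beside FPKM ratios of 1.61, 1.71 and 1.82.

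All 27 iron-sulfur cluster assembly genes passed the filter. In Myc 5 were 2-fold or more above vector, in MycN 1 and in Minimal Myc 3, with 0 as far below in each. The shares of all genes that far above were 11.2%, 7.65% and 13.6%, so the MycN and Minimal Myc counts did not exceed them. The shares as far below were 1.56%, 1.86% and 1.68%. The list medians were 0.63, 0.37 and 0.67. Fdx1, a ferredoxin that carries electrons, was at 48.3 FPKM with Myc, 20.9 with MycN and 42.9 with Minimal Myc, against 19.1 in vector. Nfs1, the cysteine desulfurase that supplies sulfur, was at 17.5, 11.8 and 15.1 FPKM, against 7.56. Glrx5, a glutaredoxin that passes clusters on, was at 93.2, 80.4 and 102 FPKM, against 45.9. Fdxr, the reductase that feeds ferredoxins, was instead highest in MycN, at 11.7 FPKM, with 8 in Myc, 3.97 in Minimal Myc and 3.39 in vector.

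Few other genes with a known iron-responsive element could be read, since 3 of 5 passed the filter and 0 of them reached 2-fold. In Myc, MycN and Minimal Myc 11.2%, 7.65% and 13.6% of all genes were that far above vector, and 1.56%, 1.86% and 1.68% that far below. A count of 0 of 3 cannot be told from these shares. Hypoxia response genes, a group that oxygen and iron shortage can both raise, had medians of 0.81, 0.24 and 0.54 over 12 genes. Of these, 3 were at least 2-fold higher and 1 lower in Myc, 1 and 1 in MycN, and 2 and 1 in Minimal Myc, where 11.2%, 7.65% and 13.6% of all genes were higher and 1.56%, 1.86% and 1.68% lower. Ddit4, an inhibitor of growth signalling, was at 48.8, 42.9 and 17.2 FPKM, against 8.97 in vector. Egln3, an oxygen-sensing enzyme that needs iron, was at 0.00592, 0.233 and 0.487 FPKM, against 3.66, and was the 1 lower gene in each culture. Pgk1, a glycolytic enzyme, was at 524, 320 and 637 FPKM, against 273. Ldha, of the same list, was also read by NanoString. Its NanoString ratio to vector was 2.16 with Myc, 1.19 with MycN and 0.951 with Minimal Myc. The FPKM ratios were 2.37, 1.68 and 1.46, so the 2 readings had opposite directions in Minimal Myc.

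**Figure D5:**
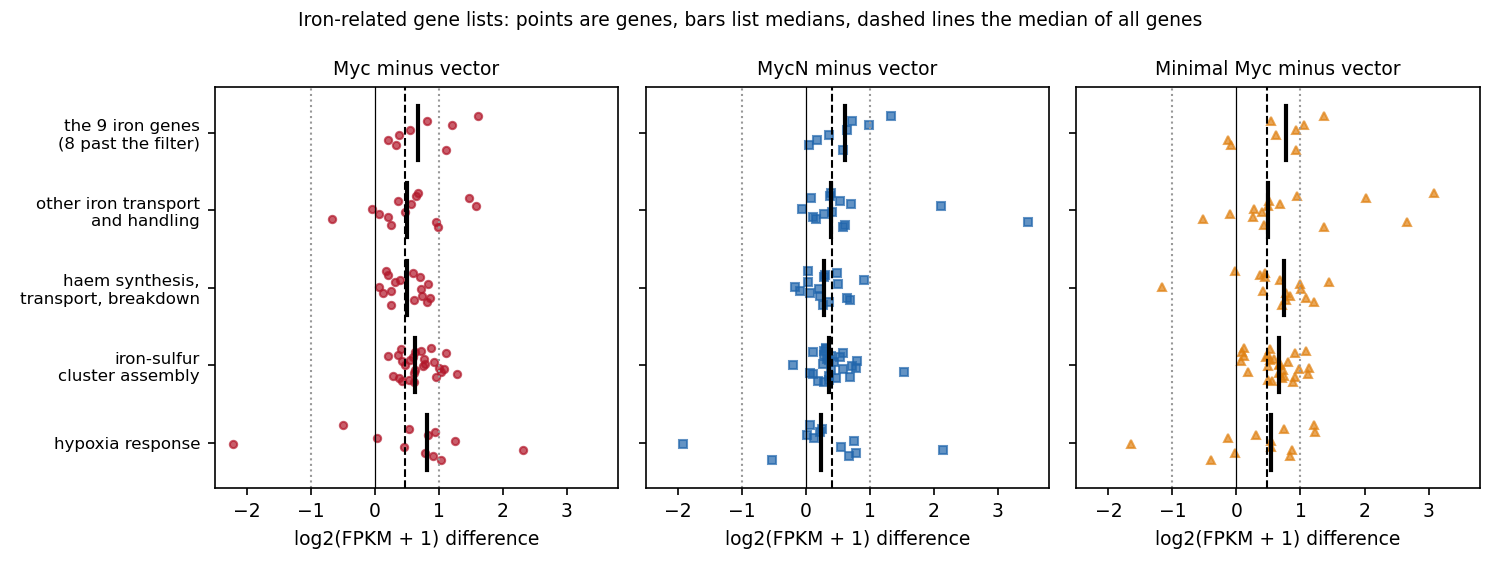
Log2(FPKM + 1) differences from vector of the genes past the filter in 5 lists, for Myc, MycN and Minimal Myc, with list medians (bars), the median of all genes (dashed) and 2-fold either way (dotted). The median of the iron genes is 0.68, 0.61 and 0.77, and Hmox1 is the haem gene left of the lower dotted line in Minimal Myc.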

How the data were processed

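The authors deposited 2 tables of FPKM with 1 column per library and 26608 rows. The 32 rows that hold a NanoString signal were set apart. The tools and build, per the submitters' processing notes, were Cufflinks 2.2.0, TopHat2 2.0.11 and mm9, with roles not stated. Polyadenylated RNA was made into strand-keeping libraries, per the labels' protocols. In the scaled FPKM table the authors multiplied each library by 1 factor: 2.04 for Myc, 1.3 for MycN, 1.28 for Minimal Myc and 1 for vector.

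Identical rows of a gene were merged and differing ones summed (189 genes, 0 of the 9). Genes averaging 1 FPKM or more were kept, without 310 small RNA genes. Differences were of log2(FPKM + 1), called at 2-fold (Python 3.11.15, pandas 2.3.3). Known folds put into the vector values came back when the difference was taken without the added 1, which checks the arithmetic only. Depth was derived from the commonest ratio between libraries among genes under 0.1 FPKM in each and from GENCODE M21 lengths minus 200 bases, the best of the offsets up to 400, a step chosen after seeing the data. The members and lists were chosen with earlier results of these data known. Named genes were the 9, the 2 largest 2-fold differences of each other list in each comparison with vector, and the 3 nearest to Tfrc. List genes read by NanoString were also named. Hmox1, Ncoa4, Fbxl5, Steap2 and the markers quoted were chosen after their values were seen. Alternatives were another pseudocount, no filter, the scaled table, centring and the highest row of each gene. A planned comparison of the members' proteins was not run.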

Additional observations from a re-analysis of the deposited data

How the results depend on the processing

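Scaling decided the counts of iron genes at least 2-fold from their comparator. With scaled FPKM, 8 of the 8 genes past the filter were higher in Myc than in vector, 4 in MycN, 4 in Minimal Myc, and 1 (Aco1) was lower in MycN than in Myc and 1 (Fth1) in Minimal Myc than in Myc. Centred on the median difference, the counts higher than vector were 1 for Myc and 0 for MycN and for Minimal Myc. A pseudocount of 0.1 raised the MycN count to 2, through Slc39a14. Added after seeing the data was a pseudocount of 0.1 with no filter. With it, 4 of the 9 genes were higher in Myc than in vector (3 as reported). In MycN 2 were (1) and in Minimal Myc 3 (2). Of the 9, 1 was lower in MycN than in Myc and 1 higher in Minimal Myc than in MycN. Slc40a1, with 3 fragments in vector and 35 in MycN, was the gene added in each count except MycN against vector. The shares of all genes with a pseudocount of 0.1 or with no filter were not computed. The highest row of each gene and no filter alone left all counts as they were. The 3 ratios within a library were the same in each table and with the highest row. No paired analysis was possible because each group has 1 library and no test was run. Depth limits Slc40a1, with 3 fragments in vector. The spread between cultures is unknown for all 9 genes.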
